A study of Mus musculus with 39 samples.

Results

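The inferior colliculus, the main auditory relay of the midbrain, was compared between 9 mice with mild presbycusis (4 females and 5 males) and 8 young control mice (4 females and 4 males). These 17 mice were all those labelled "Mild Presbycusis" or "Young Control" among the 39 mice of the series, which also holds 17 middle-aged mice (10 females, 7 males) with good hearing and 5 mice with severe presbycusis (4 females, 1 male). All were untreated CBA/CaJ mice, an inbred strain, bred and aged in one quiet vivarium. Each mouse gave 1 Affymetrix MOE430A array, on which a gene is read by 1 or more probe sets. The young controls were described as young adults with good hearing and the mild group as having limited hearing loss. Their ages are unknown from the labels, and age and hearing loss cannot be told apart in this comparison.

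Presbycusis is the loss of hearing with age, and the CBA/CaJ mouse loses hearing late and slowly. The inferior colliculus receives most ascending auditory fibres and holds many GABAergic neurons. Its resident phagocytes are the microglia, which carry complement, Fc receptors and cathepsins. MHC class I molecules show peptides made by the proteasome to T cells, and interferons raise the class I chains together with the immunoproteasome subunits that cut those peptides. In a whole piece of tissue, a change in the number of cells of a type and a change in RNA per cell cannot be told apart.

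The deposited values are intensities on a linear scale, scaled to a common mean, and every difference below is on the scale of log2(intensity + 16). Differences were tested with limma over all 39 arrays with sex as a covariate, and adjusted p is after Benjamini-Hochberg adjustment over 22626 probe sets, with a threshold of 0.05. Arrays of young mice had median intensities of 164 to 217, and those of mild mice 172 to 224. The array of young replicate 2 carried transcripts of the cerebellum: the mean level of 19 cerebellar genes was 10.91 there, against 8.41 to 8.66 in the other young and 8.38 to 8.68 in the mild mice. Zic1, a cerebellar granule cell transcription factor, read 6488 on that array, and its median over the young mice was 712. The mean level of 20 neuronal genes ran from 10.22 to 10.56 in young and from 10.18 to 10.57 in mild mice. Expression of the Y-linked gene Eif2s3y fitted the labelled sex in all 17 mice, and went against it in 1 of the 39, a middle-aged mouse.

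Of 22626 probe sets, 38 passed the test, which is 0.168% of all, and all 38 were higher in mild presbycusis. No probe set was lower at that threshold, and the lowest adjusted p of a fall was 0.0687. At an unadjusted p under 0.05, 1495 probe sets (6.61%) differed in either direction. The 38 probe sets named 31 genes, and 2 of the 38 are left unnamed because they list several genes. Their differences ran from 0.50 to 2.10 with a median of 0.87, or 1.41-fold to 4.28-fold, while the median over all probe sets was 0.03. In 35 of the 38, each of the 9 mild mice was above the young mean, a count favoured by choosing probe sets for their difference. For 12 of the 38, every mild mouse was above every young mouse, a separation met by 14 (0.0619%) of all probe sets. The reverse, every mild mouse below every young mouse, was met by 2 of all probe sets (0.00884%) and by 0 of the 38. The count fell to 24 without young replicate 2, to 24 without young replicate 3 and to 25 without mild replicate 2. Of the 38, 22 kept the call with each of 22 single mice left out in turn. With only the young and mild groups fitted 20 probe sets passed, 18 of the 38 among them, and with arrays centred on their median 20 passed, all of them among the 38. Genes that lost every call in both of these fits were Lamp2, Nckap1l, C1qb, Lyz1, C3ar1, S100a1, Fcgr3, Ctss, Pdk1, Ptprc and Ctsz. B2m, Cd14, Tyrobp, Igtp and Rsad2 lost theirs only in the first fit, and Ly86, Adgre1, Laptm5 and Cd52 only in the second.

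**Figure D1:**
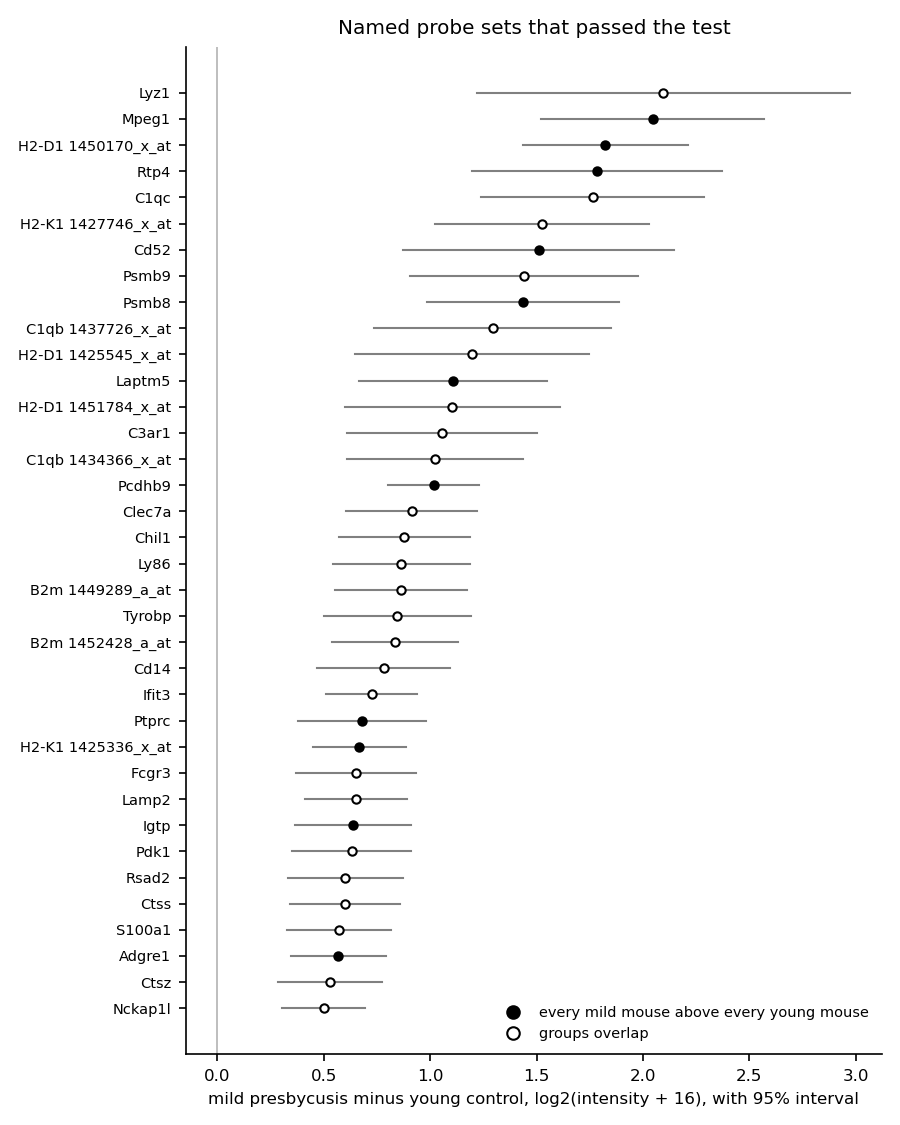
Difference between mild presbycusis and young control (x axis, log2(intensity + 16), 9 against 8 mice) with its 95% interval for the 36 named probe sets that passed the test, 1 line each. Filled circles mark probe sets in which every mild mouse was above every young mouse, and open circles those in which the groups overlap; the differences run from 0.50 in Nckap1l to 2.10 in Lyz1.

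The 3 genes given as marks of this contrast came from 3 different gene groups. H2-D1, a classical MHC class I heavy chain, read 65.6 at the lowest, 93.6 at the median and 119 at the highest in young mice, and 195, 324 and 871 in mild mice. Mpeg1, a pore-forming protein of macrophages, read 42.9, 133 and 178 in young mice, and 327, 545 and 1242 in mild mice. Rtp4, an interferon-induced transport protein for cell-surface receptors, read 22.6, 168 and 289 in young mice, and 342, 422 and 1136 in mild mice. In all 3, the lowest mild mouse was above the highest young mouse. The differences were 1.82 ± 0.19 (SE) for H2-D1 (limma adjusted p = 1.04e-07), 2.05 ± 0.26 for Mpeg1 (adjusted p = 9.08e-06) and 1.78 ± 0.29 for Rtp4 (adjusted p = 7.51e-04). Rtp4 has 2 probe sets, of which only this 1 passed, and the other was at 0.22.

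In the MHC class I pathway, 3 chains and 2 immunoproteasome subunits rose. Of 10 class I chains measured, H2-D1, H2-K1 and B2m passed, 9 were above 0 and the median difference was 0.21. Over all 12393 named genes, read on the brightest probe set of each, 27 (0.218%) passed, 58.5% were above 0 and the median was 0.04. H2-K1, the other classical heavy chain of this strain, read 322 to 646 in young mice (median 478) and 659 to 876 in mild mice (median 777), so the groups did not overlap. B2m, the light chain shared by all class I molecules, read 1428 to 4067 in young mice (median 2621) and 3899 to 6218 in mild mice (median 4864), with 8 of 9 mild mice above the highest young mouse. The differences were 0.67 ± 0.11 for H2-K1 (adjusted p = 7.25e-04) and 0.86 ± 0.15 for B2m (adjusted p = 0.00264). With only the young and mild groups fitted, both called probe sets of B2m missed the threshold (adjusted p = 0.0623 and 0.122). Class I genes are close copies of each other, and the array reads them unevenly: H2-D1 has 9 probe sets, of which 3 passed, 8 were above 0 and 1 was at -0.11. H2-K1 has 4, of which 2 passed, with differences from 0.31 to 1.52. On 2 of its 3 passing probe sets H2-D1 was dim (medians of 23.7 and 44.5 in young mice) and lost the call in 9 and 14 of 22 fits with a single mouse left out, with adjusted p up to 0.16 without young replicate 1.

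Psmb8 and Psmb9 encode the inducible subunits that replace catalytic subunits of the constitutive proteasome. Psmb8 read 15.3 to 81.9 in young mice (median 32.3) and 83.4 to 214 in mild mice (median 115), with no overlap. Psmb9 read 11.4 to 111 in young mice (median 17.0) and 56.1 to 201 in mild mice (median 107), and 4 of 9 mild mice were above the highest young mouse. Both differences were 1.44, with SE of 0.22 for Psmb8 (adjusted p = 3.66e-04) and 0.27 for Psmb9 (adjusted p = 0.00394). Of 12 genes of the immunoproteasome and of peptide loading, these 2 passed and the median difference was 0.09. None of 27 subunits of the constitutive proteasome passed: 10 were above 0 and their median was -0.05. The lowest p among them belonged to Psmb2 (-0.17 ± 0.10, adjusted p = 0.819) and Psmb4, both of the beta ring, the latter at -0.17 ± 0.11 (adjusted p = 0.824).

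MHC class II, which presents extracellular peptides and is carried by macrophages and activated microglia, had no gene that passed among 9 measured, with 6 above 0 and a median of 0.18. H2-Aa, a class II chain, read 149 to 280.5 in young mice (median 202) and 221 to 787 in mild mice (median 335), a difference of 0.73 ± 0.18 (adjusted p = 0.078). Cd74, the invariant chain, was at 0.39 ± 0.13 (adjusted p = 0.402).

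Promoter sequences of 6 called genes are shown because the called genes include several that interferon is known to induce. RefSeq gave a promoter for 24 of the 31 genes (build GRCm38.p6), and the 250 bases before the start were searched on both strands. The core of the interferon-stimulated response element was searched as GAAANNGAAA, which contains no other motif searched. It was present in Ifit3, Rsad2, Igtp, B2m and Ctss, 5 of 24, against 936 of 27025 genes with a promoter (3.46%). The gamma-activated sequence, TTCNNNGAA, was present in Igtp and Psmb8, 2 of 24, against 8.13% of all genes. The core of the site of PU.1, a myeloid transcription factor, was searched as GAGGAAGT and was present in C1qc, 1 of 24, against 2.79% of all. Such a match is a match of letters and no measure of binding. The sequences below run 5′ to 3′ on the strand of the gene and end at the base before its start, with the matches in capitals. Ifit3 holds 2 response element cores (chr19:34583279-34583528, plus strand). Rsad2 (chr12:26456453-26456702, minus strand), B2m (chr2:122147437-122147686, plus strand) and Ctss (chr3:95526536-95526785, plus strand) hold 1 each. Igtp (chr11:58199306-58199555, plus strand) holds both a gamma-activated sequence and a response element core, and Psmb8 (chr17:34197945-34198194, plus strand) holds a gamma-activated sequence.
Ifit3: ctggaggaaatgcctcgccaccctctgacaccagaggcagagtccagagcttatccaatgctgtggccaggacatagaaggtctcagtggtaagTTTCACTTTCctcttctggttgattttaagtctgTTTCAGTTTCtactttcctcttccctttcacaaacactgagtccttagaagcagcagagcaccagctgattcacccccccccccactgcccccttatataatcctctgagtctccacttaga
Rsad2: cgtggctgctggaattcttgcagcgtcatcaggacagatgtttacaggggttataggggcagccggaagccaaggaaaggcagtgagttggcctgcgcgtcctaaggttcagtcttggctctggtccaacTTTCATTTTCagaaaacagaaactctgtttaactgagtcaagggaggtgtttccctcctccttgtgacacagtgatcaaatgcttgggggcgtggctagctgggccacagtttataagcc
Igtp: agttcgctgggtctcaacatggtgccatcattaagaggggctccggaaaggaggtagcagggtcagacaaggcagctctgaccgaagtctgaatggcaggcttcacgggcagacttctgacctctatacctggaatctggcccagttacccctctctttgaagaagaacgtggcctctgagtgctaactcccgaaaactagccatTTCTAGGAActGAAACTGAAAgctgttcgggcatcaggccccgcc
B2m: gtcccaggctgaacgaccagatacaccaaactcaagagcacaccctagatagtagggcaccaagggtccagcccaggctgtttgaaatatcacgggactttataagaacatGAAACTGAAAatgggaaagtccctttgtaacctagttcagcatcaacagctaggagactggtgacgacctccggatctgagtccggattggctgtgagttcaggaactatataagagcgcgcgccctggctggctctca
Ctss: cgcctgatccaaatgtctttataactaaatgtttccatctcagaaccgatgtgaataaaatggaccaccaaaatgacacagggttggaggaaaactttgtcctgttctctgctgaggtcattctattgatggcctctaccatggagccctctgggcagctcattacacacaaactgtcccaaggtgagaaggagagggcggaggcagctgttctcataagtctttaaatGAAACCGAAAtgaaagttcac
Psmb8: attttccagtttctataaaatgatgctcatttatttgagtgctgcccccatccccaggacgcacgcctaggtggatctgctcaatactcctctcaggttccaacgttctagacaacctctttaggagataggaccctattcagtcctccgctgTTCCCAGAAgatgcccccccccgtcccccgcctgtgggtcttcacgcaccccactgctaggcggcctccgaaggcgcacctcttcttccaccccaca

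Among interferon-induced genes 4 rose. Of 41 measured, Ifit3, Rtp4, Igtp and Rsad2 passed, 14 were higher at an unadjusted p under 0.05 and none lower. Over all named genes, 7.04% reached that unadjusted p in either direction. In all, 38 of 41 were above 0, against 58.5% of all named genes, with a median of 0.20. Ifit3, a partner of the antiviral RNA-binding protein Ifit1, read 423 to 601 in young mice (median 442) and 575 to 1148 in mild mice (median 793), with 8 of 9 mild mice above the highest young mouse. Igtp, an interferon-gamma-induced GTPase, read 165 to 276 in young mice (median 234) and 281 to 627 in mild mice (median 342), with no overlap. Rsad2, the antiviral enzyme viperin, read 368 to 605 in young mice (median 486) and 537 to 1002 in mild mice (median 699), so the groups overlapped. The differences were 0.73 ± 0.11 for Ifit3 (adjusted p = 1.40e-04), 0.64 ± 0.14 for Igtp (adjusted p = 0.023) and 0.60 ± 0.13 for Rsad2 (adjusted p = 0.0395). Rsad2 passed on 1 of 3 probe sets, with the lowest at -0.01. The mean level of the 41 genes, the 4 called ones among them, was 7.02 to 7.36 in young and 7.37 to 7.67 in mild mice. With a single mouse left out, Igtp lost its call in 4 of 22 fits (adjusted p up to 0.0869, without young replicate 3) and Rsad2 in 12 (up to 0.122, without young replicate 3). Cxcl10, an interferon-induced chemokine, read 17.6 to 209 in mild and 10.9 to 103 in young mice and did not pass (1.18 ± 0.39, adjusted p = 0.422).

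**Figure D2:**
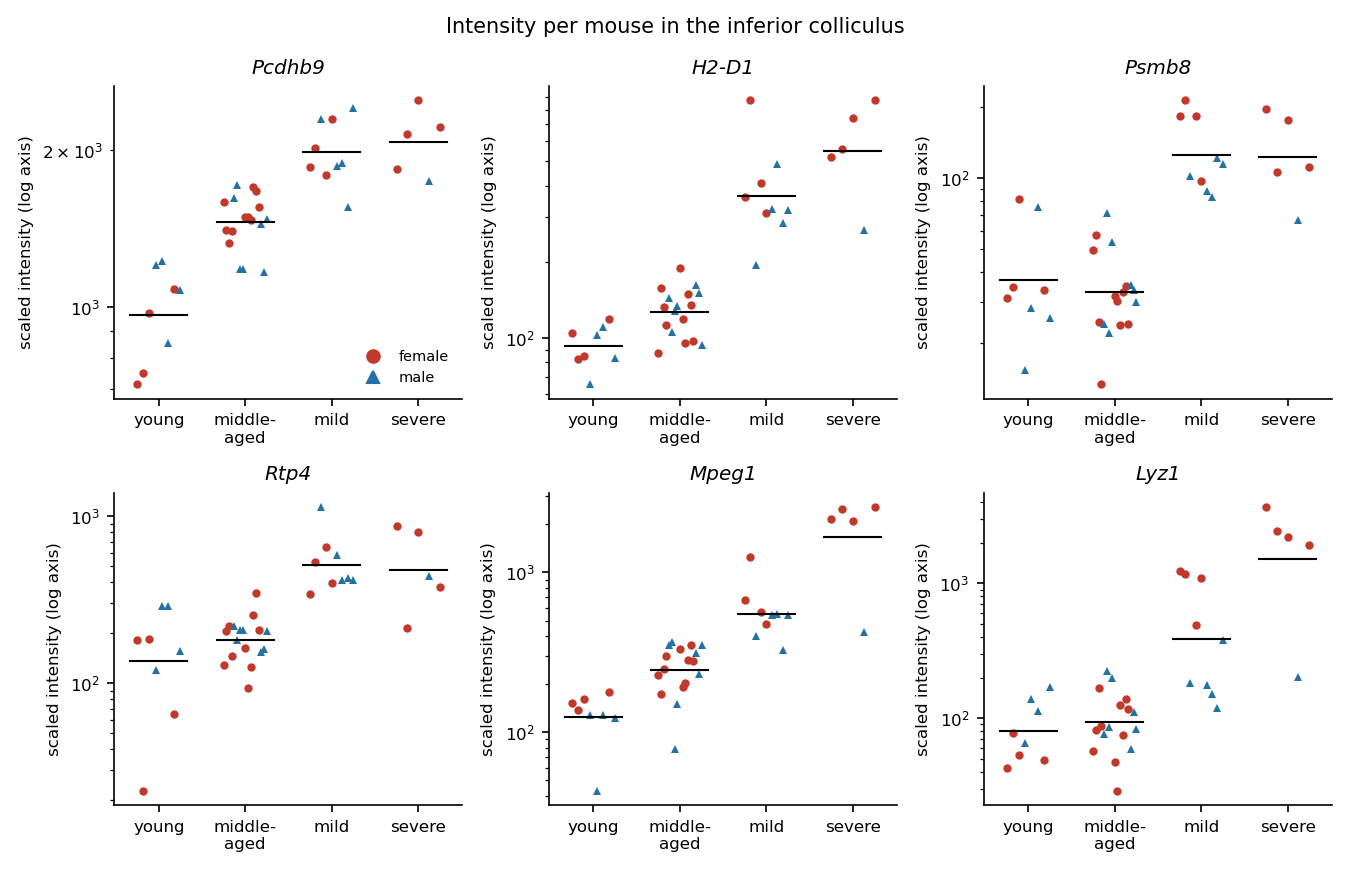
Scaled intensity (y axis, log scale) of 6 genes in each of the 39 mice, by group (x axis); circles are females, triangles are males, and the bar is the group mean of log2(intensity + 16) put back on the intensity scale. Every mild mouse was above every young mouse for Pcdhb9, H2-D1, Psmb8, Rtp4 and Mpeg1, while for Lyz1 the 4 mild females (494 to 1235) were above the 5 mild males (118 to 381).

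Activated microglia and other phagocytes were the list with the most called genes, 5 on the brightest probe sets. The lists were drawn up with earlier results of these data known, so this rank is no separate support. Of 34 measured, Mpeg1, Clec7a, Cd14, Lyz1 and Cd52 passed, and the median difference was 0.44. At an unadjusted p under 0.05, 20 were higher and none lower, against 7.04% of all named genes in either direction. Clec7a, the beta-glucan receptor Dectin-1, read 186 to 328 in young mice (median 252) and 297 to 972 in mild mice (median 441), with 8 of 9 mild mice above the highest young mouse. Cd14, a co-receptor for bacterial lipopolysaccharide, read 153 to 315 in young mice (median 205) and 178 to 479 in mild mice (median 376). Mild replicate 3 was the lowest mild mouse for Cd14 and lay inside the young range. Cd52, a surface glycoprotein of white blood cells, was dim, at 20.2 to 45.04 in young mice (median 30.2) and 58.8 to 201 in mild mice (median 104), with no overlap. The differences were 0.91 ± 0.15 for Clec7a (adjusted p = 0.00106), 0.78 ± 0.15 for Cd14 (adjusted p = 0.0108) and 1.51 ± 0.32 for Cd52 (adjusted p = 0.0209). Cd68, a lysosomal glycoprotein of phagocytes, read 145 to 243 in young and 172 to 537 in mild mice and did not pass (0.63 ± 0.15, adjusted p = 0.0574).

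Lyz1 encodes a lysozyme, an enzyme that cuts bacterial cell walls, and a near-identical copy, Lyz2, may share its probes. It read 43.0 to 172 in young mice (median 71.2) and 118 to 1235 in mild mice (median 381), and 7 of 9 mild mice were above the highest young mouse. Its difference, 2.10 ± 0.43 (adjusted p = 0.0191), had the largest error of the 38. Only 1 of 3 probe sets of Lyz1 passed, and the lowest difference among them was 0.25. Lyz1 lost its call in 6 of 22 fits with a single mouse left out (adjusted p up to 0.066, without mild replicate 2), and Cd52 in 4 (up to 0.066, without mild replicate 2). The mean level of the 34 phagocyte genes, the called ones among them, was 7.32 to 7.73 in young mice and 7.69 to 8.39 in mild mice. On that mean 8 of the 9 mild mice were above all young mice.

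In the list of resident microglia identity, the 1 gene that passed is no marker of microglia alone. It was Ptprc, the phosphatase CD45 of leukocytes in general, and no other gene of the list passed. Of 16 measured, 13 were above 0 (58.5% over all named genes) and the median was 0.25. Ptprc read 77.6 to 166 in young mice (median 141) and 179 to 291 in mild mice (median 224), with no overlap (0.68 ± 0.15, adjusted p = 0.0337). It lost its call in 9 of 22 fits with a single mouse left out, with adjusted p up to 0.117 without young replicate 2. Cx3cr1, the fractalkine receptor of microglia, read 260.2 to 722 in young and 522 to 1032 in mild mice and did not pass (0.54 ± 0.14, adjusted p = 0.113). Other called genes are known from macrophages and blood cells at large. Adgre1, the macrophage surface protein F4/80, read 269 to 370.1 in young mice (median 329) and 414 to 692 in mild mice (median 475), with no overlap. Ly86, the partner of an innate receptor on myeloid and B cells, read 484 to 847 in young mice and 810.5 to 1750.0 in mild mice. Nckap1l, the blood-cell subunit of an actin-regulating complex, read 243 to 452 in young mice and 435 to 607 in mild mice. It passed on 1 of 2 probe sets, and the other was at 0.22. The differences were 0.57 ± 0.11 for Adgre1 (adjusted p = 0.00821), 0.86 ± 0.16 for Ly86 (adjusted p = 0.00394) and 0.50 ± 0.10 for Nckap1l (adjusted p = 0.00788). With arrays centred on their median all 3 missed the threshold (adjusted p = 0.113 for Adgre1, 0.0653 for Ly86 and 0.157 for Nckap1l), and Nckap1l also missed it with only the young and mild groups fitted (adjusted p = 0.28).

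Complement C1q, the molecule that starts the classical complement pathway, has chains encoded by C1qa, C1qb and C1qc. C1qc read 11.8 to 124 in young mice (median 28.8) and 37.9 to 272 in mild mice (median 167). Young replicate 8 was its highest young mouse and mild replicate 3 its lowest mild mouse, and the other 8 mild mice were above all young mice. C1qb, on its brightest probe set, read 191 to 468 in young mice (median 309) and 416 to 1209.6 in mild mice (median 651). C1qa was dim, at 20.9 to 37.1 in young and 33.4 to 292 in mild mice, and did not pass (0.94 ± 0.27, adjusted p = 0.236). The differences were 1.76 ± 0.26 for C1qc (adjusted p = 1.40e-04) and 1.02 ± 0.21 for C1qb (adjusted p = 0.0128), and all 3 probe sets of C1qb were above 0, of which 2 passed. C3ar1, the receptor for the complement fragment C3a, passed on 1 of 2 probe sets (1.05 ± 0.22, adjusted p = 0.0211), and its brighter probe set was at 0.34 (adjusted p = 0.637). Of 15 complement genes measured, 3 passed on at least 1 probe set, as did 31 of all 12393 named genes. The median difference on the brightest probe sets was 0.18. C1qb lost the call without young replicate 3 on this probe set (adjusted p = 0.0631) and in 8 of 22 fits on the other (adjusted p up to 0.0869, without young replicate 3), and C3ar1 in 5 (up to 0.0659, without young replicate 1).

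Fc receptors bind antibody, and Tyrobp, the adaptor DAP12, passes on signals from several microglial receptors. Of 19 genes of this group, Tyrobp, Fcgr3 and Laptm5 passed on at least 1 probe set, as did 31 of all 12393 named genes. On the brightest probe sets 15 of the 19 were above 0, against 58.5% of all named genes, and the median was 0.18. Tyrobp read 92.7 to 279 in young mice (median 185) and 209 to 558 in mild mice (median 313). Fcgr3, a low-affinity receptor for IgG, read 125 to 226 in young mice (median 194) and 182 to 489.7 in mild mice (median 285). Both genes overlapped between the groups, with 7 of 9 mild mice above the highest young mouse in each. The differences were 0.85 ± 0.17 for Tyrobp (adjusted p = 0.0138) and 0.65 ± 0.14 for Fcgr3 (adjusted p = 0.0255). Laptm5, a lysosomal membrane protein of blood cells, passed on 1 of 3 probe sets (1.11 ± 0.22, adjusted p = 0.0103) with no overlap there, and its brightest probe set was at 0.56 (adjusted p = 0.216). Trem2, a receptor that signals through Tyrobp, was looked up after its value was seen because it ran the other way: it read 52.8 to 147 in young mice and 17.7 to 164 in mild mice (-0.84 ± 0.35, adjusted p = 0.656). With a single mouse left out, Tyrobp lost its call without young replicate 4 (adjusted p = 0.0503) and Fcgr3 in 7 of 22 fits (up to 0.0946, without young replicate 2).

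Cathepsins are proteases of the lysosome. Of 13 measured, Ctss and Ctsz passed on at least 1 probe set, as did 31 of all 12393 named genes. On the brightest probe sets 11 of the 13 were above 0, against 58.5% of all named genes, and the median was 0.34. Ctss, which trims the class II invariant chain, read 2743 to 4270.1 in young mice (median 3797) and 4019 to 7889 in mild mice (median 5310.0), with 8 of 9 mild mice above the highest young mouse (0.60 ± 0.13, adjusted p = 0.0255). Ctsz passed at the threshold on 1 probe set (0.53 ± 0.12, adjusted p = 0.04997), while its brightest probe set did not (0.70 ± 0.17, adjusted p = 0.0637). Ctsh was at 0.61 ± 0.15 (adjusted p = 0.08) and Ctsd, the main aspartic protease of the lysosome, at 0.44 ± 0.12 (adjusted p = 0.216). Ctss lost its call in 6 of 22 fits with a single mouse left out (adjusted p up to 0.0922, without young replicate 8) and Ctsz in 14 (up to 0.156, without mild replicate 1). Among 33 other lysosomal genes the median difference was 0.03, and Lamp2, a main protein of the lysosomal membrane, passed on 1 of 4 probe sets (0.65 ± 0.12, adjusted p = 0.00375). On that probe set Lamp2 read 812 to 1310.1 in young mice and 995 to 2081 in mild mice, with mild replicate 8 inside the young range, and its brightest probe set was at 0.10 (adjusted p = 0.972).

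**Figure D3:**
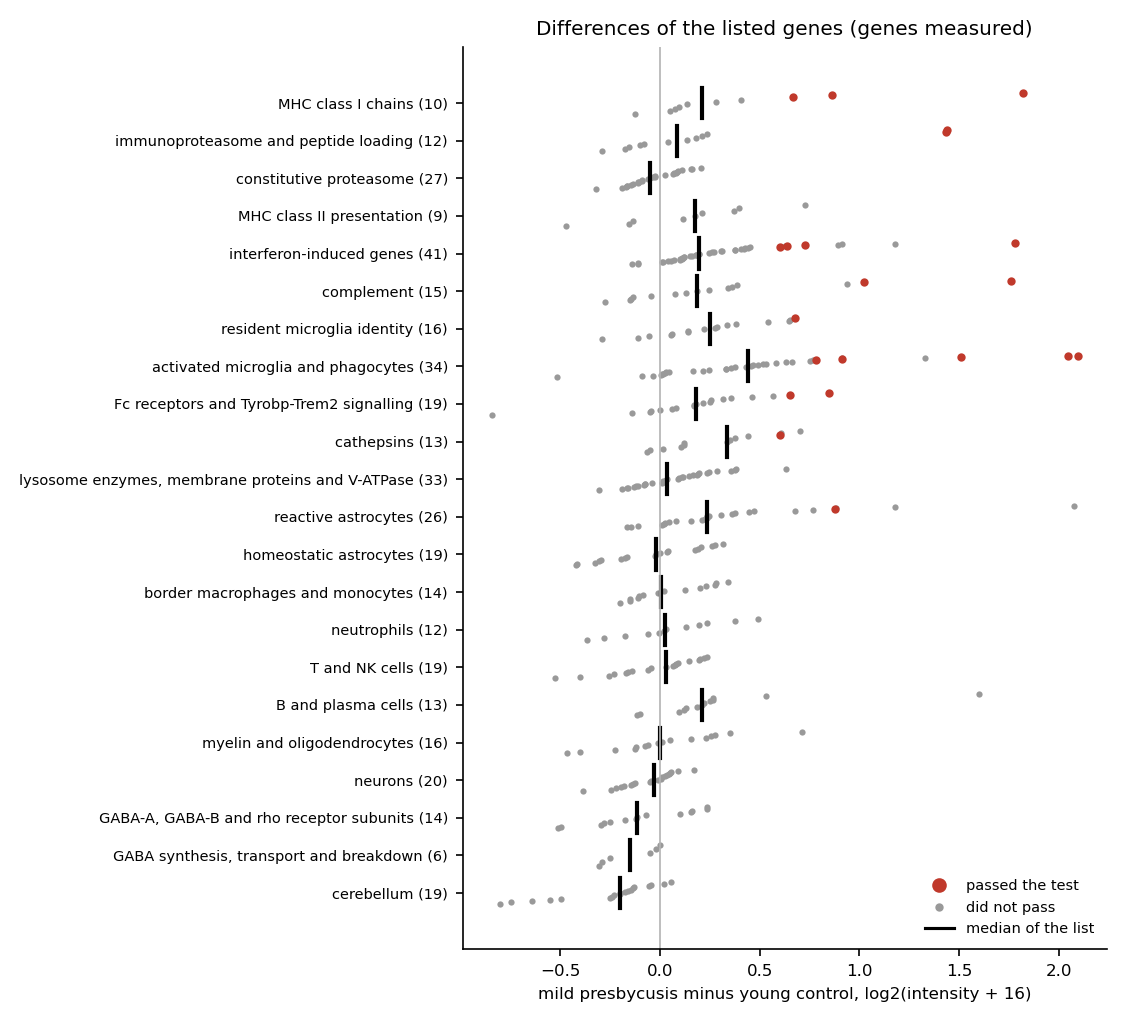
Difference between mild presbycusis and young control (x axis, log2(intensity + 16)) for each gene of 22 lists, read on its brightest probe set; the number of genes measured stands in parentheses. Red points passed the test, grey points did not, and the black bar is the median of the list. It was highest for activated microglia and phagocytes (0.44) and lowest for the cerebellum (-0.20). The cerebellar values include young replicate 2, whose mean level on that list was 10.91. The other young mice were at 8.41 to 8.66 and the mild mice at 8.38 to 8.68. The lists were drawn up with earlier results of these data known.

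Outside the immune genes, Pcdhb9 had the lowest p of the 38. It encodes a clustered protocadherin, a family of cell-surface proteins by which neurons tell their own branches from those of others. Pcdhb9 read 713 at the lowest, 1029 at the median and 1229 at the highest in young mice, and 1553, 1889 and 2399 in mild mice. The groups did not overlap, and the difference was 1.02 ± 0.11 (adjusted p = 1.04e-07). Of 22 beta protocadherins measured, Pcdhb9 alone passed, 16 were above 0 (58.5% over all named genes) and the median was 0.16. Pcdhb3 was at 0.56 ± 0.17 (adjusted p = 0.329) and Pcdhb13, a dim probe set, at -0.97 ± 0.34 (adjusted p = 0.532). The genes of this cluster resemble each other, and cross-hybridization between them was not tested.

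The remaining called genes came from other groups. Chil1, a chitinase-like protein made by reactive astrocytes, read 193 to 317 in young mice (median 254) and 297 to 879 in mild mice (median 428), with 6 of 9 mild mice above the highest young mouse (0.88 ± 0.15, adjusted p = 0.00189). Of 26 genes of reactive astrocytes it alone passed, with 23 above 0 and a median of 0.24. Serpina3n, a secreted protease inhibitor of this group, was at 22.4 to 41.7 in young mice (median 28.9) and at 33.4 to 401 in mild mice (median 179). In all, 8 of the 9 mild mice exceeded all young mice, but the spread among mild mice was wide and Serpina3n did not pass (2.08 ± 0.48, adjusted p = 0.0568). Gfap, the intermediate filament of astrocytes, was at 0.68 ± 0.27 (adjusted p = 0.628). S100a1, a calcium-binding protein, read 725 to 1018 in young mice and 846 to 1961 in mild mice (0.57 ± 0.12, adjusted p = 0.0222). It passed on 1 of 2 probe sets, and the other was at -0.002. Pdk1, a kinase that holds back pyruvate dehydrogenase, read 238 to 707 in young mice and 578 to 974 in mild mice (0.63 ± 0.14, adjusted p = 0.0305). It also passed on 1 of 2 probe sets, and the other was at 0.27. With a single mouse left out, S100a1 lost its call in 7 of 22 fits (adjusted p up to 0.078, without young replicate 2) and Pdk1 in 6 (up to 0.104, without mild replicate 5).

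Markers of other cells were examined beside the phagocyte genes. None of 12 neutrophil genes, 19 T and NK cell genes, 13 B and plasma cell genes or 14 genes of border macrophages and monocytes passed. Their median differences were 0.03, 0.03, 0.21 and 0.01. The mean level of the border macrophage list was 6.84 to 7.71 in young and 7.005 to 7.68 in mild mice, and that of the neutrophil list 6.47 to 6.92 and 6.45 to 7.11. The part of blood-borne cells in the higher phagocyte genes was not tested further. Lists of myelin and oligodendrocytes, endothelium, mural cells, fibroblasts and choroid plexus likewise had 0 calls, with medians from -0.11 to 0.00. Igf2, a growth factor of the meninges and choroid plexus, was at -1.75 ± 0.50 (adjusted p = 0.253).

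Neuronal and GABAergic genes, the subject named in the title of the series, gave no call in this comparison. Of 20 neuronal genes 9 were above 0, with a median of -0.03. Of 14 subunits of GABA receptors 5 were above 0, with a median of -0.12. Of 6 genes that make, carry or break down GABA, 0 were above 0, with a median of -0.15. Slc32a1, the vesicular GABA transporter, read 1446 to 4716 in young mice and 1266 to 2210.2 in mild mice (-0.29 ± 0.18, adjusted p = 0.828). Slc6a12, a GABA and betaine transporter, was at -0.31 ± 0.14 (adjusted p = 0.692). It was very dim, at 7.16 to 44.6 in young mice (median 16.3) and 4.09 to 18.8 in mild mice (median 7.72), near the pseudocount of 16. Young replicate 2, with its cerebellar transcripts, was the highest young mouse for both genes, and without it Slc32a1 was at -0.13 and Slc6a12 at -0.18. The list medians above include that array. The authors also deposited RMA signals of 33 probe sets, most of them GABA-related. On the log2 of those signals no probe set passed between mild and young mice, and the lowest adjusted p (limma, over 33) was 0.23, for Gabarapl2, a relative of the GABA-receptor-associated protein, at -0.15 ± 0.05. Gabra6, a receptor subunit of cerebellar granule cells, was at -0.57 ± 0.69 and at 0.13 without young replicate 2, and Gabrd, another such subunit, moved from -0.20 to -0.00. Among immediate early genes, which neurons switch on with activity, 7 of 21 were above 0 with a median of -0.08. Fos was at -0.62 ± 0.25 (adjusted p = 0.652) and Egr1 at -0.36 ± 0.16 (adjusted p = 0.679).

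The estimated difference between mild and young mice was larger in females for most called probe sets. Only 4 of the 38 passed a test of that sex difference. A fit with group means per sex gave a female minus male value above 0 in 33 of the 38 probe sets. Over all probe sets the share was 43.5%. The value is signed and can be above 0 through a fall in males. The medians of the 38 were 1.22 in females and 0.63 in males, and all 38 were above 0 in each sex. Within females 606 probe sets (2.68%) passed, 35 of the 38 among them, and within males 6 (0.0265%), 5 of the 38 among them. The test of the difference between the sexes itself passed for 279 probe sets (1.23%), of which 232 had a female minus male value above 0. It passed for 4 of the 38, on C1qb (2 probe sets), Lyz1 and Pdk1. At an unadjusted p under 0.05, 13 of the 38 and 15.4% of all probe sets passed that test.

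**Figure D4:**
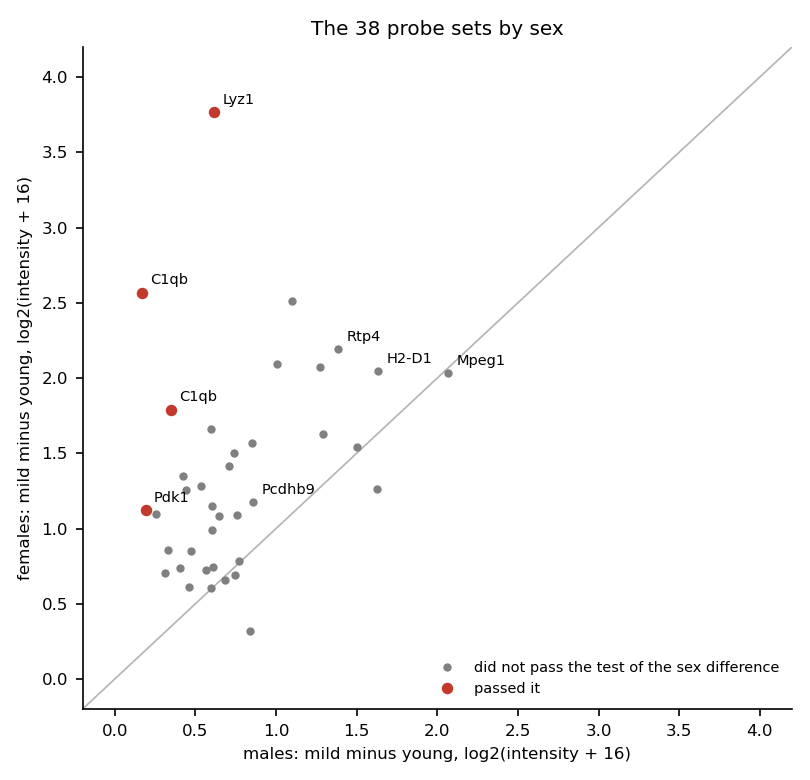
Difference between mild presbycusis and young control in males (x axis) and females (y axis), both in log2(intensity + 16), for the 38 probe sets that passed the test over both sexes; the line marks equal differences. Red points passed the test of the difference between the sexes: Lyz1 (3.77 in females, 0.62 in males), C1qb (2.57 and 0.17, and 1.79 and 0.35) and Pdk1 (1.12 and 0.19).

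For Lyz1 the young females read 43.0 to 77.4, the young males 65.0 to 172, the mild females 494 to 1235 and the mild males 118 to 381. The difference was 3.77 ± 0.38 in females and 0.62 ± 0.37 in males, and the sexes differed by 3.15 ± 0.53 (adjusted p = 0.00425). For C1qb, on its dimmer called probe set, the young females read 79.6 to 134, the young males 142 to 247, the mild females 555 to 857 and the mild males 185 to 395. The young females thus lay below the young males and the mild females above the mild males, and the sexes differed by 2.40 ± 0.35 (adjusted p = 0.00122). For Pdk1 they differed by 0.93 (adjusted p = 0.0384). Mpeg1, in contrast, was 2.03 higher in females and 2.07 higher in males (adjusted p of the sex difference 0.98), Ifit3 0.69 and 0.75 (0.935) and H2-K1 0.66 and 0.68 (0.971).

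The 10 genes with the smallest p for the sex difference were C1qb, Lyz1, Mtfr1, Rpl13a, Dck, Jkamp, Rpl35, Snrpa1, Rpl11 and Rpl37a. Of these, 4 encode proteins of the large ribosomal subunit. For Rpl13a the young females read 284 to 369.9, the young males 431 to 669, the mild females 560.0 to 902 and the mild males 331 to 547. The females were higher in mild presbycusis by 1.16 ± 0.19 and the males lower by 0.36 ± 0.18, and the sexes differed by 1.52 ± 0.26 (adjusted p = 0.00425). Mtfr1, a regulator of mitochondrial fission, ran from 183 to 279.6 in young females, 373 to 654 in young males, 678 to 936 in mild females and 233 to 613 in mild males. In both genes the young females lay below the young males. Of 41 cytosolic ribosomal protein genes measured, 5 passed the test of the sex difference, all 5 with a female minus male value above 0. The median differences of the 41 were 0.28 in females and -0.09 in males. Of the 39 arrays 8 carry a suffix in their name (1 young and 2 mild mice), and with that suffix as a covariate the count of 279 became 89. With only the young and mild groups in the fit it was 65. Quantile normalization gave 402, of which 288 had a female minus male value above 0. Leaving out a single mouse moved it by over 1.5 times in 7 cases: to 173, 150, 149 and 144 without mild replicates 4, 5, 7 and 8, to 419 and 517 without mild replicates 3 and 9, and to 152 without young replicate 5.

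**Figure D5:**
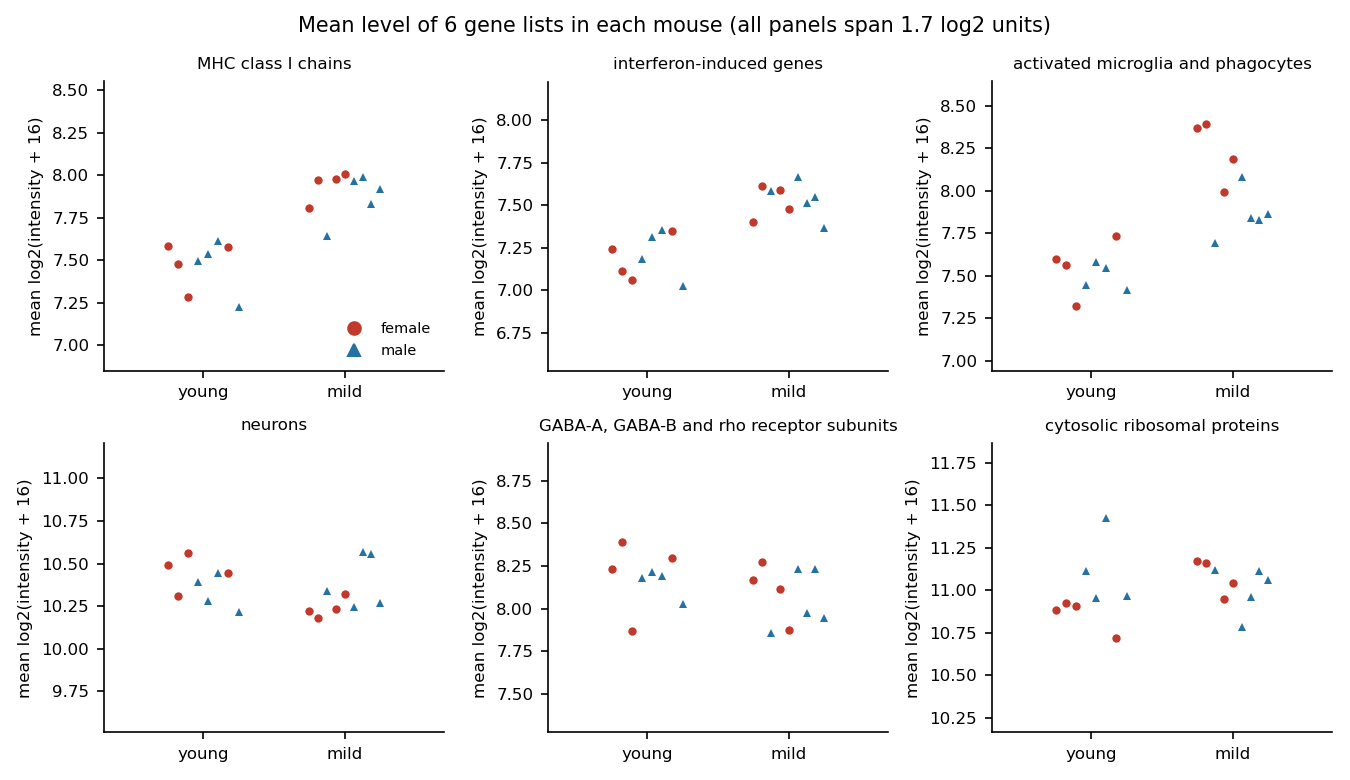
Mean level of the measured genes of 6 lists in each mouse (y axis, mean of log2(intensity + 16)), for 8 young and 9 mild mice; circles are females and triangles are males, and all panels span the same number of log2 units. The class I and interferon lists, which include genes called in this comparison, do not overlap between the groups, but the gaps are narrow. The highest young and lowest mild mouse are at 7.61 and 7.65 for class I, and at 7.355 and 7.370 for interferon. The phagocyte list runs from 7.99 to 8.39 in mild females and from 7.69 to 8.08 in mild males, which overlap. The neuronal and GABA receptor lists overlap between the groups.

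Levels in the middle-aged and severe groups were set beside those of young and mild mice. Each group holds different mice. Comparisons with these groups share arrays with the one above, so the values are given side by side. Pcdhb9 had medians of 1029 in young, 1472 in middle-aged, 1889 in mild and 2138 in severe mice. Mpeg1 had medians of 133, 280.1, 545 and 2157, and Clec7a of 252, 283, 441 and 1244. H2-D1 had medians of 93.6, 133, 324 and 556. Psmb8 had medians of 32.3, 31.6, 115 and 112, and Rtp4 of 168, 204, 422 and 437. For Psmb8 and Rtp4 the mild and severe medians lay close together, while Mpeg1 and Clec7a were highest in severe mice. Between mild and middle-aged mice 25 of 22626 probe sets (0.11%) passed, with differences of 1.46 ± 0.16 for H2-D1 (adjusted p = 1.24e-06), 1.56 for Psmb8 (adjusted p = 4.60e-06), 1.51 for C1qc (adjusted p = 2.55e-04), 1.19 for Mpeg1 (adjusted p = 0.00651) and 0.44 for Pcdhb9 (adjusted p = 0.0204). Between severe and mild mice 0 probe sets passed in limma, and 843 (3.73%) had an unadjusted p under 0.05. Without severe replicate 4, the only male of its group, 11 passed, 10 of them higher in severe mice. For Mpeg1 that male read 427 and the 4 severe females 2110.2 to 2580. Clec7a came nearest of the named genes, 0.93 higher in severe mice (adjusted p = 0.0764), and Mpeg1 was 1.38 higher (adjusted p = 0.232). Psmb8 was at -0.10 and Igtp at -0.27 between severe and mild mice, neither past the threshold. The levels of the severe group are mostly those of females.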

How the data were processed

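RNA of the inferior colliculus of 39 mice was measured on Affymetrix MOE430A arrays, 1 per mouse. The deposited intensities are linear and scaled: after trimming 2% at each end, each array's mean lay between 500.1 and 500.2. The summarisation algorithm is not given in the labels. The authors also deposited RMA signal values for 33 probe sets, and 249 further per-sample columns were left unused.

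The 64 array controls among 22690 probe sets were removed. A pseudocount of 16 was added before taking log2. limma 3.58.1 (R 4.3.3) was fitted to all 39 arrays with group means and sex, with a variance trend in the empirical Bayes step (34 residual degrees of freedom), with Benjamini-Hochberg adjustment over 22626 probe sets and a threshold of 0.05. A second fit with means per group and sex tested the difference between the sexes. The fits were tested on simulated data.

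Named genes are all called probe sets with 1 symbol, up to 4 members of each list by lowest p on the brightest probe set, the 5 falls and 5 further rises of lowest p among the brighter 60% of probe sets, 10 genes of the sex test, and H2-D1, Mpeg1 and Rtp4. The genes, lists and rule were chosen with earlier results of these data known. Symbols came from the platform annotation: 20380 probe sets have 1, 691 have several and 1555 have none. The number of arrays limits the precision. In the main fit the p-values set each difference against the spread between mice, estimated over all 39 arrays. Alternatives changed the scaling, pseudocount, filter, covariates, probe sets and mice.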

Additional observations from a re-analysis of the deposited data

Results flagged for a closer look

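Among 77 probe sets examined in 154 groups, 11 groups held a mouse set apart by Dixon's test, where chance alone gives about 1 in 20 groups. Values are log2(intensity + 16), with the next mouse in parentheses. For Mpeg1, young replicate 5 was low at 5.88 (7.11). For C1qc, young replicate 8 was high at 7.13 (5.60) and mild replicate 3 low at 5.75 (7.18). Mild replicate 3 was also low for Cd14, at 7.60 (8.39). For Lamp2, mild replicate 8 was low at 9.98 (10.56), and for Tyrobp, young replicate 4 was low at 6.76 (7.57). Mild replicate 2 was high for Igtp, at 9.33 (8.58), and for H2-Aa, at 9.65 (8.70). For Pcdhb13, young replicate 1 was low at 4.50 (6.30). For Igf2, mild replicate 5 was high at 10.14 (7.55). For Prom1, young replicate 2, the mouse with cerebellar transcripts, was high at 10.09 (8.86).

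The difference between mild and young mice differed between the sexes, by limma's test of that difference, for 279 probe sets. The female minus male value was 3.15 for Lyz1, 2.40 and 1.44 for the called probe sets of C1qb and 0.93 for Pdk1. It was 2.01 for Dck, which makes nucleotides from salvaged deoxynucleosides, 1.93 for Mtfr1, 1.19 for the splicing protein gene Snrpa1 and 1.16 for Jkamp. For the ribosomal protein genes it was 1.78 for Rpl35, 1.75 for Rpl37a, 1.52 for Rpl13a and 1.48 for Rpl11. In females Dck was at 1.40, Rpl35 at 1.29 and Rpl11 at 0.90, and in males they were at -0.60, -0.49 and -0.59.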

How the results depend on the processing

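None of the 38 called probe sets turned direction in any of 40 alternatives, 2 kept the call in all that measured them, and 22 kept it with each of 22 single mice left out. The count of 38 was 20 with arrays centred on their median, 20 with only the 2 groups fitted, 20 on plain probe sets only, 464 in females alone and 7 in males alone. It was 25 without 3 arrays with cerebellar signal and, in an alternative chosen after seeing the data, 23 without young replicate 2 and mild replicate 1. With 1 mouse left out it ran from 24 (without young replicate 2 or 3) to 51. The count of 279 for the sex difference was 455 without the 40% dimmest probe sets, 65 with only the 2 groups, 95 on plain probe sets and 89 with a term for the suffix in array names, which was added after seeing the data, and it ran from 144 to 517 with 1 mouse left out. Between severe and mild mice the count of 0 became 1 with quantile normalization, 2 with median centring, 5 with a pseudocount of 64, 1 without the sex covariate, 2 with array weights, 2 on plain probe sets, 6 in females and 1 with the suffix. In males it was 8, but that fit has 1 severe mouse, assumed to vary like the other groups, and is no replicated test. With 1 mouse left out it ran from 0 to 11, the latter without severe replicate 4, the only severe male. Between mild and middle-aged mice the count of 25 was 44 with array weights, 13 on plain probe sets, 79 in females and 3 in males. It ran from 15 (without mild replicate 2) to 33 (without young replicate 2) with 1 mouse left out. Of the middle-aged mice only replicate 4 was left out singly, so that range is no full test of this comparison. Fits on fewer mice or probe sets differ in what they test, and otherwise the cause was not tested. Of 48 list medians, 43 kept their sign with the mean over all probe sets of a gene. No paired analysis was possible because each array is a different mouse and the replicate numbers only name mice within a group. Dim probe sets such as those of Psmb9, C1qa and Cd52 are the least certain.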

Other observations

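Chemokines and cytokines gave no call. Of 31 chemokines and their receptors 23 were above 0, with a median difference of 0.20. Of 37 interleukins, TNF family members and receptors 24 were above 0, with a median of 0.04. The share above 0 over all named genes was 58.5%. Ccl4, a chemokine of macrophages, was at 0.46 ± 0.14 (limma adjusted p = 0.29), Cxcl1, which draws neutrophils, at 0.93 ± 0.28 (adjusted p = 0.29) and Il10ra, the receptor of an anti-inflammatory cytokine, at 0.89 ± 0.26 (adjusted p = 0.278). These 3 genes were named for their low p, which favours such a pattern, and in each all 9 mild mice were above the young mean. Abca1, which exports cholesterol from cells, was at 0.40 ± 0.10 (adjusted p = 0.078). Tent5c, a poly(A) polymerase of plasma cells, read 13.1 to 179.5 in young and 54.2 to 482 in mild mice (1.60 ± 0.44, adjusted p = 0.211).

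No fall passed the test. Prom1, a membrane protein of progenitor cells, read 300.4 to 1072 in young mice (median 361) and 142 to 292 in mild mice (median 223), and every mild mouse was below every young mouse (-0.84 ± 0.20, adjusted p = 0.0687). Cdc42, a GTPase of the actin skeleton, was at -0.45 ± 0.11 (adjusted p = 0.0938) and Elmo1, which acts in engulfment, at -0.43 ± 0.11 (adjusted p = 0.113). The DNA repair polymerase gene Polb was at -0.40 ± 0.11 (adjusted p = 0.167), and Nrep at -0.50 ± 0.14 (adjusted p = 0.197). Among rises that missed the threshold, Prdx4, a peroxidase of the endoplasmic reticulum, read 71.9 to 266 in young and 241 to 507 in mild mice (0.99 ± 0.23, adjusted p = 0.0687). Defb1, an antimicrobial peptide, was at 0.88 ± 0.21 (adjusted p = 0.0611) and Gna13, a G protein subunit, at 0.65 ± 0.16 (adjusted p = 0.0687).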
